A study of Rattus norvegicus with 156 samples.

Results

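The genes described here encode proteins of the synaptic vesicle and of regulated exocytosis. They were taken as every probe set annotated to 1 of 41 gene symbols on the 3 Affymetrix rat U34 arrays. The arrays held 75 probe sets for 39 of these genes, among 18178 probe sets for 10969 gene symbols in all, and held none for Stx2 and Pclo. Of the 39 genes, 20 had 1 probe set and 19 had several, with at most 5 for a gene. A gene with several was represented by the one of highest mean log2 signal over all pools. These representatives lay on array A for 27 genes, on B for 8 and on C for 4. The other probe sets are given where their calls differ from it in the ganglia, nerve or a tissue difference named here.

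The samples were 52 RNA pools of rat nervous tissue, each of 4 to 6 rats, and each was hybridised to all 3 arrays. The rats were naive, naive with gabapentin, sham-operated, ligated (spinal nerve ligation, SNL) or ligated with gabapentin. In ligated rats the L5 and L6 spinal nerves of the operated side were tied, and the L4 nerve was spared. Sham surgery exposed the nerves and left them untied. Gabapentin, an antiepileptic drug also used against neuropathic pain, was injected into the peritoneum at 100 mg per kg daily for 7 days, and the other rats received vehicle. Tissue was taken 19 to 21 days after surgery, and ligated rats entered only if their paw withdrawal threshold had dropped when tested on days 12 to 14. The tissues were dorsal root ganglia (DRG) of levels L4, L5 and L6, sciatic nerve at mid thigh and spinal cord, each from the operated (ipsilateral) and the opposite (contralateral) side, and brain. Those are 11 compartments with 1 pool per treatment, of which the naive contralateral L6 ganglion, the naive gabapentin contralateral L5 ganglion and the ligated contralateral nerve were not analysed here.

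Ligation was tested as the 2 ligated pools of a compartment against its 3 unligated pools, so p values measure the spread between these pools and not between rats. Gabapentin was given in 1 pool of each group. Surgery was not balanced, since both ligated pools and only 1 of the 3 others had been operated on. The labels do not say whether the same rats gave all tissues. For naive rats, the 2 sides are labels without an operation.

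A nerve terminal releases transmitter when a vesicle fuses with the plasma membrane. Vesicle SNARE proteins of the VAMP family pair with SNAP-25 and syntaxin on the plasma membrane, synaptotagmins sense calcium and trigger fusion, and complexins hold the assembled SNAREs ready. Munc13 and RIM proteins prime vesicles at the active zone, NSF and alpha-SNAP take spent SNAREs apart, and dynamin, amphiphysin and endophilin retrieve membrane. A dorsal root ganglion holds the cell bodies of sensory neurons and not their terminals in the cord and the periphery. Transcripts for the terminal proteins of these neurons are made there. A pool of whole ganglia also holds other cells, whose transcripts add to its signal. Syt2 and Vamp1 encode the synaptotagmin and the VAMP that are typical of fast-signalling neurons of the spinal cord and hindbrain.

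Both of these genes were measured, but at very different brightness. Vamp1 exceeded the 40th percentile of its array in 52 of 52 pools. Syt2 exceeded it in 16 pools: in 5 of 9 pools of unligated ipsilateral ganglia, 3 of 6 of unligated cord, and 0 of unligated nerve or brain. Syt2 was therefore a dim probe set whose low values carry little information. Doc2b and Stx3 passed that percentile in 0 pools, Bsn in 1 and Unc13b in 4, whereas 15 of the 39 genes passed it in all 52.

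Promoter windows were searched for 3 short motifs. RefSeq (assembly GRCr8) gave a window for 34 of the 39 genes, and the 250 bases before the annotated start were searched on both strands. The cyclic AMP response element TGACGTCA was found in 4 of these 34 windows (11.8%), against 466 of 27457 windows of the same length (1.7%). The GC box GGGCGG was found in 25 of 34 (73.5%) against 32.4% of all windows, where the median GC content was 64.6% for the members and 52% for all. The AP-1 motif TGANTCA was found in 0 of 34, against 6.36% of all windows, which says only that these letters were not in these windows. The 4 windows with the response element belong to Vamp1, Syn1, Napa and Sh3gl2, and all 4 are printed. Each of these genes fell in the injured L5 ganglion, and a link between motif and change was not tested. The windows to print were chosen after those values were seen. Capitals mark the response element and any GC box on either strand, which overlap nowhere in these windows.
Vamp1 (chr4:159698644-159698893, + strand): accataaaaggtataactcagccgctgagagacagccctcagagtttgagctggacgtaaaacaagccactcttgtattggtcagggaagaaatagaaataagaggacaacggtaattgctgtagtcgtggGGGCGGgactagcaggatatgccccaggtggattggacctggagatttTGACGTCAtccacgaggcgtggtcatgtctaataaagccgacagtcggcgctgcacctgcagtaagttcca
Syn1 (chrX:3725495-3725744, + strand): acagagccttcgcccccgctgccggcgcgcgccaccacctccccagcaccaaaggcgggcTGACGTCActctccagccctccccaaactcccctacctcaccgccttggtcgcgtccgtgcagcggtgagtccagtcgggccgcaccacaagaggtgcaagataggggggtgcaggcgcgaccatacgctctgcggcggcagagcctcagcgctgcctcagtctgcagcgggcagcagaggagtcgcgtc
Napa (chr1:85915185-85915434, + strand): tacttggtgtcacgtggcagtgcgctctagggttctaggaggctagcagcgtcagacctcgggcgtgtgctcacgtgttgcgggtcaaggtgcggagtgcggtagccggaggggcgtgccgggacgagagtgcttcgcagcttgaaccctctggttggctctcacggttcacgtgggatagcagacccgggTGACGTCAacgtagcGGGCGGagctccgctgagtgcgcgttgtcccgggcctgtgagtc
Sh3gl2 (chr5:104699020-104699269, + strand): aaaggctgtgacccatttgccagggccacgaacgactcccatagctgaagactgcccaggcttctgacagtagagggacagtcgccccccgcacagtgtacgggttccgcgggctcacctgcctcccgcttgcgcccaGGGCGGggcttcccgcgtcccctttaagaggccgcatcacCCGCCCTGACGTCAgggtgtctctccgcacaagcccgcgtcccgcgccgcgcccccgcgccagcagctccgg
The response element lay 71 to 64 bases before the start in Vamp1, 190 to 183 in Syn1, 59 to 52 in Napa and 66 to 59 in Sh3gl2. In Sh3gl2 it adjoins a GC box read on the other strand. A match is a description of letters and does not show that a factor binds there.

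In the injured L5 ganglion, 16 genes of vesicle release fell and 1 rose among the 32 that could be tested (limma, Benjamini-Hochberg adjusted p below 0.05 over all probe sets). Over all genes tested in that ganglion, 9.44% were called lower and 6.80% higher. The median log2 change of the 32 genes was -0.61, against -0.01 over all genes. Lin7b, Syt2, Vamp1, Sh3gl2 and Sv2b had the largest falls, and Syt4 was the gene that rose. A further 7 genes (Syt1, Doc2b, Rph3a, Stx3, Rims1, Unc13b and Bsn) were too dim to be tested. The filter asked for a signal above the 40th percentile of its array in 2 of the 5 pools, and Lin7b, Syt2 and Doc2a met it through unligated pools only. A gene that enters in that way has to differ, so the count is also given over the 29 genes above that percentile in both groups, of which 14 fell and 1 rose. Without the ligated pool, 9 members were called, all lower. A pooled ganglion does not tell fewer neurons from less transcript per neuron.

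The neuron markers moved in the same ganglion. Over 9 neuron markers the mean log2 signal was 10.64 to 10.78 in the ligated L5 pools and 11.27 to 11.33 in the unligated ones, and 4 of the 9 fell. Rbfox3, a nuclear marker of mature neurons, changed by -1.57 on the log2 scale, Nefm by -0.82 and Nefh by -0.81. The median over the 9 was -0.30, and Stmn2 (-0.01), Tubb3 (-0.08) and Prph (-0.22) were not called. Over 8 macrophage markers the mean was 7.87 to 7.91 against 6.11 to 6.63, and all 7 that were tested rose. Skeletal muscle markers overlapped between the groups, at 7.42 to 9.40 in ligated and 5.41 to 8.37 in unligated pools. The ratio of 3′ to 5′ GAPDH signal, a measure of RNA integrity, was 1.01 and 1.05 in the ligated pools and 1.13 to 1.26 in the others. Array B, which carried Snap25, Syn1, Syt3 and Cplx1, had deposited medians of 23 and 18.1 in the ligated and 25.6 to 29.2 in the unligated L5 pools. The part of these differences in the gene changes was not tested, except that a fit with the muscle markers as a covariate called 15 of the 32 genes.

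Among the SNAREs of the nerve terminal, Vamp1 and Snap25 fell while Vamp2 and Stx1a did not pass the test. The Vamp1 signal in L5 was 1080 in the naive, 1080 in the naive gabapentin and 1150 in the sham pool, and 313 in the ligated and 407 in the ligated gabapentin pool. Every unligated pool lay far above both ligated pools. The log2 change was -1.61 (SE 0.13, adjusted p = 0.00108), from 1104 ± 40.5 (SD, n = 3) to 359.7 ± 66.3 (n = 2). Of its 5 probe sets, 4 fell, and the fifth changed by -0.65 (adjusted p = 0.0665). Snap25 encodes the plasma membrane SNARE that is cut by several botulinum toxins. Its L5 signals were 1500, 2119 and 2346 in the unligated and 1005 and 1076 in the ligated pools, which did not overlap, with a log2 change of -0.91 (adjusted p = 0.0186). The call was lost without the naive gabapentin, the ligated or the ligated gabapentin pool. All 4 Snap25 probe sets that were tested fell, the largest change being -1.67.

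Vamp2, the more widely used VAMP of central synapses, had a log2 change of -0.21 (adjusted p = 0.320) in L5, and none of its 4 probe sets was called. Stx1a, the plasma membrane syntaxin of terminals, had a change of 0.03 (adjusted p = 0.894). The 2 vesicle VAMPs were thus unlike in size of change at L5, but the difference between them was not tested.

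Of the calcium sensors and effectors, Syt2 and Syt3 fell and Syt4 rose among 6 genes tested in L5. Syt2 signals were 17.6, 26.4 and 33.7 in the naive, naive gabapentin and sham pools and 5.44 and 2.54 in the ligated and ligated gabapentin pools. The groups did not overlap, and the ligated values lay at the dim end of the array. The log2 change was -1.68 (SE 0.33, adjusted p = 0.0164). The call was lost without the ligated pool, without the ligated gabapentin pool and with the muscle covariate (adjusted p = 0.0534). With 1 treatment left out at a time, the call was recomputed in 3 cases and kept in 1. Syt3, a calcium sensor with high affinity, read 231.6, 239.2 and 261.4 in the unligated pools and 92.6 and 110.5 in the ligated ones. Its log2 change was -1.23 (SE 0.13, adjusted p = 0.00226), and both of its probe sets fell. Syt3 did not share the weakness of Syt2, since its signal stood above the 40th percentile in all 52 pools.

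Syt4 encodes an atypical synaptotagmin with weak calcium binding that is found on dense-core vesicles. It was the member that went the other way. Its L5 signal was 294.9, 435.4 and 399.4 in the naive, naive gabapentin and sham pools and 655.1 and 755.7 in the ligated and ligated gabapentin pools. Both ligated pools lay above all unligated ones. The log2 change was 0.91 (SE 0.18, adjusted p = 0.0158), and all 4 of its probe sets rose. The call was lost under the deposited scaling and without either ligated pool. Syt5 had a change of 1.03 (SE 0.95, adjusted p = 0.496), which rests on a naive pool at 6.28 beside 114 and 132.3 in the other unligated pools and 109 and 118.8 in the ligated ones. Syt11 changed by -0.45 (adjusted p = 0.167) and Doc2a by -1.13 (adjusted p = 0.110).

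Of the vesicle membrane and clustering proteins, the role with the most genes tested, 5 of 8 genes were lower in L5. By share, vesicle retrieval (3 of 3) and complexins and SNARE recycling (3 of 4) held more falls. Sv2b, a vesicle glycoprotein and a botulinum toxin receptor, had signals of 655.1, 685.7 and 595.2 in the unligated pools and 265.7 and 210.1 in the ligated ones. Its log2 change was -1.42 (SE 0.14, adjusted p = 0.00161). Rab3a, the main small GTPase of synaptic vesicles, read 509.5, 563.6 and 513.6 without ligation and 225.7 and 222.9 with it. The ligated Rab3a pools lay close to each other and well below the rest, for a log2 change of -1.22 (SE 0.11, adjusted p = 0.00137).

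Both synapsins, which tether vesicles to each other and to actin, fell in L5. Syn2 signals were 214.2, 205.9 and 175.7 in the unligated and 90.8 and 106.3 in the ligated pools, a log2 change of -0.97 (SE 0.14, adjusted p = 0.00644). Only 1 of the 3 Syn2 probe sets was called, and all 3 changed in the same direction. Syn1 signals were 600.9, 433.4 and 526.6 against 224.3 and 304.6, a log2 change of -0.97 (SE 0.18, adjusted p = 0.0145), and both Syn1 probe sets fell. The calls of Syn1, Syn2 and Napa were lost without the ligated pool. Syp, the abundant vesicle protein synaptophysin, changed by -0.89 (SE 0.12, adjusted p = 0.00476). The other SV2 genes did not pass, with log2 changes of -0.55 for Sv2a (adjusted p = 0.0668), whose other probe set was at 0.15, and -0.14 for Sv2c, and neither did Rab3b at 0.48 (adjusted p = 0.455).

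Retrieval and recycling genes fell as well. All 3 retrieval genes were lower in L5, with a median log2 change of -1.05. Sh3gl2, which encodes endophilin A1, read 79.6, 101.6 and 105.1 in the unligated and 30.2 and 30.3 in the ligated pools, a log2 change of -1.48 (SE 0.16, adjusted p = 0.00249). Dnm1, the neuronal dynamin that cuts off endocytic vesicles, read 638.5, 613.0 and 663.7 against 311.1 and 299.4, a log2 change of -1.05 (SE 0.10, adjusted p = 0.00172). The Sh3gl2 and Dnm1 signals of the ligated pools were nearly equal. Amph, which encodes amphiphysin, a partner of dynamin, changed by -0.88 (adjusted p = 0.0149), a call that was lost with the muscle covariate and without the naive gabapentin or the ligated pool.

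Of the complexins and recycling factors, 3 of 4 fell in L5. Nsf, the ATPase that takes SNARE complexes apart, had a signal of 552.3 ± 28.7 (SD, n = 3) in the unligated and 291.8 ± 22.1 (n = 2) in the ligated pools, a log2 change of -0.91 (SE 0.11, adjusted p = 0.00345). Its adaptor Napa, which encodes alpha-SNAP, changed by -0.67 (SE 0.10, adjusted p = 0.00693). Cplx1 changed by -0.45 (adjusted p = 0.0489), just past the threshold, in 1 of its 2 probe sets. That call was lost without the naive, the naive gabapentin, the sham or the ligated pool. Cplx2, the complexin of forebrain neurons, changed by 0.03.

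The active zone and priming genes were mostly too dim to be tested. Lin7b, a PDZ adaptor of a complex that holds receptors and channels at synapses, had the lowest log2 change of any member in L5, at -2.49 (SE 0.25, adjusted p = 0.00187). Its signals were 36.5, 49.7 and 35.6 in the unligated pools and 2.38 and 2.44 in the ligated ones. The ligated values lay under the pseudocount of 5.8 that was added to array A signals, so the log2 scale understates the ratio and its size is uncertain. Unc13a, the priming factor Munc13-1, changed by -0.53 (adjusted p = 0.0834).

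Of the 5 SNAREs of other membranes tested, 0 fell and 0 rose in L5, which is near the background share of 9.44% lower and 6.80% higher for so few genes. Their median log2 change was 0.41, and a difference from the other roles was not tested. These proteins serve traffic within the Golgi, endosomes and non-neuronal plasma membrane. The values were 0.81 for Stx4 (adjusted p = 0.0888), 0.46 for Stx6, 0.41 for Stx5, 0.02 for Vamp3 and -0.23 for Stx7. At an unadjusted p below 0.05, 23 of all 32 members differed, and 33.1% of all genes did. Of those 23 members, 19 were lower.

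**Figure D1:**
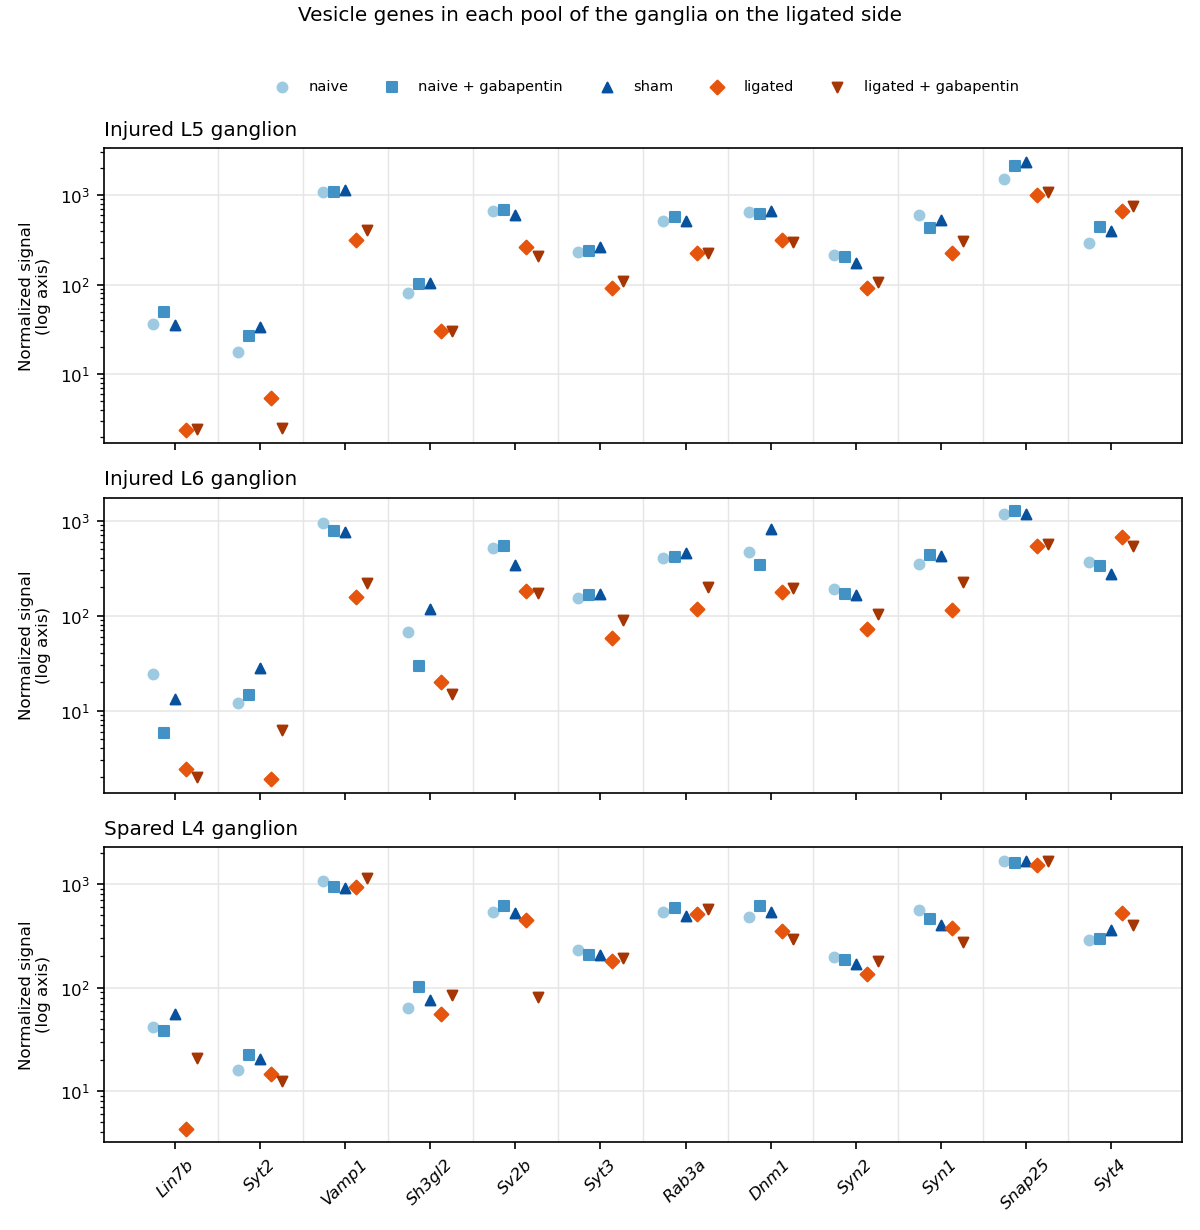
Normalized signal (log axis) of 12 genes in each of the 5 pools of the ipsilateral L5, L6 and L4 ganglia, with 1 point per pool and colours for the treatment. In L5 the 2 ligated pools lie below the 3 unligated pools for every gene shown except Syt4, where they lie above, as Vamp1 at 313 and 407 against 1080 to 1150 shows.

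The injured L6 ganglion gave 12 genes that fell and 2 that rose among 32 tested, with 4.61% of all genes called lower and 4.76% higher. The median log2 change was -0.68, against 0.01 over all genes. Of these 32 genes 29 stood above the 40th percentile of their array in both groups, and 11 of those fell and 2 rose. Rims1, Doc2a and Syt1 met the filter through unligated pools only, and of these Doc2a was called lower. The genes that fell in both ganglia were Vamp1, Snap25, Syt3, Syp, Sv2b, Syn1, Syn2, Rab3a, Nsf, Napa and Dnm1. Those 11 are 68.8% of the genes lower in L5 and 91.7% of those lower in L6. Neuron markers in L6 averaged 10.09 to 10.33 on the log2 scale in the ligated and 10.99 to 11.10 in the unligated pools, and macrophage markers 7.63 to 7.97 against 5.87 to 6.21. Skeletal muscle markers averaged 4.93 to 5.60 in the ligated and 4.51 to 8.62 in the unligated L6 pools, the naive pool being the highest. The GAPDH ratio was 1.08 and 1.10 against 1.21 to 1.49. The part of these differences in the gene changes was not tested, except in the fit with muscle markers as a covariate given below. The L6 count was 0 under the deposited scaling, and 2 without the ligated pool, 4 without the naive pool and 8 without either gabapentin pool.

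Vamp1 had the largest fall in L6. Its signals were 947.6, 773.0 and 758.5 in the naive, naive gabapentin and sham pools and 155.8 and 221.9 in the ligated and ligated gabapentin pools. The log2 change was -2.11 (SE 0.20, adjusted p = 0.00163), and all 5 probe sets fell. Snap25 read 1182, 1258 and 1182 without ligation and 537.5 and 562.4 with it, a log2 change of -1.13 (SE 0.14, adjusted p = 0.00393). Vamp1 and Snap25 were the L6 genes that kept their calls whichever treatment was left out. Vamp2 changed by -0.86 (adjusted p = 0.0832), again with none of its 4 probe sets called.

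Vesicle membrane genes repeated the L5 pattern, with 5 of 8 lower. Rab3a read 407.1, 410.9 and 452.2 in the unligated and 117.4 and 199.0 in the ligated pools, a log2 change of -1.43 (SE 0.23, adjusted p = 0.00985). Sv2b read 521.2, 543.5 and 337.4 against 180 and 173, a log2 change of -1.35 (adjusted p = 0.0122). Syn1 read 346.3, 432.2 and 423.7 against 115.7 and 227.8, a change of -1.27 (adjusted p = 0.0303). In these genes the groups were apart. In L6 the call was shared by 1 of 2 Syn1, 2 of 3 Syn2, 1 of 3 Nsf and 1 of 2 Napa probe sets, all with the same sign. Syp changed by -1.38 and Syn2 by -0.95, both past the threshold, and Sv2c by -0.69 (adjusted p = 0.109), Rab3b by -0.17 and Sv2a by -0.12, none of them past it.

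Syt4 rose in L6 too, from 367.1, 329.5 and 274.3 in the unligated pools to 677.9 and 545.6 in the ligated ones. Its log2 change was 0.91 (SE 0.19, adjusted p = 0.0244), and 1 of its 4 probe sets was called. Set against the spared L4 ganglion, the Syt4 change was larger by only 0.37 in L5 (limma, adjusted p = 0.486). In L6 it was larger by 0.37 as well (adjusted p = 0.594). Neither difference passed, so a rise of Syt4 in the injured ganglia alone was not established. Stx5, the syntaxin of the Golgi, rose by 0.71 (adjusted p = 0.0411), in 1 of its 2 probe sets, from 81.2, 84.8 and 73.7 to 141.6 and 126.4. The Stx5 call was lost whichever treatment was left out, as were those of Doc2a, at -1.04, and Napa, at -0.62. Doc2a met the filter through unligated pools only and had to differ. Syt3 changed by -1.14 (adjusted p = 0.0167), Nsf by -0.89 (adjusted p = 0.0266) and Dnm1 by -1.40 (adjusted p = 0.0387), with Dnm1 at 467.9, 337.6 and 810.9 in the unligated and 177 and 197.3 in the ligated pools.

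Syt2, Lin7b and Sh3gl2 had low ligated values in L6 but no call. Syt2 read 12.0, 14.7 and 27.8 in the unligated and 1.88 and 6.30 in the ligated pools and was too dim to be tested. Lin7b read 24.4, 5.84 and 13.4 against 2.44 and 2.02 and was likewise not tested. Sh3gl2 read 67.9, 29.1 and 117 against 19.9 and 14.8, and its log2 change of -1.56 (SE 0.46) had an adjusted p of 0.0814. The unligated pools of all 3 genes spread widely. Other L6 values short of the threshold were -1.0 for Syt11, -0.79 for Cplx2, -0.58 for Syt5 and Rims1, -0.43 for Cplx1, -0.33 for Unc13a and 0.58 for Stx4.

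**Figure D2:**
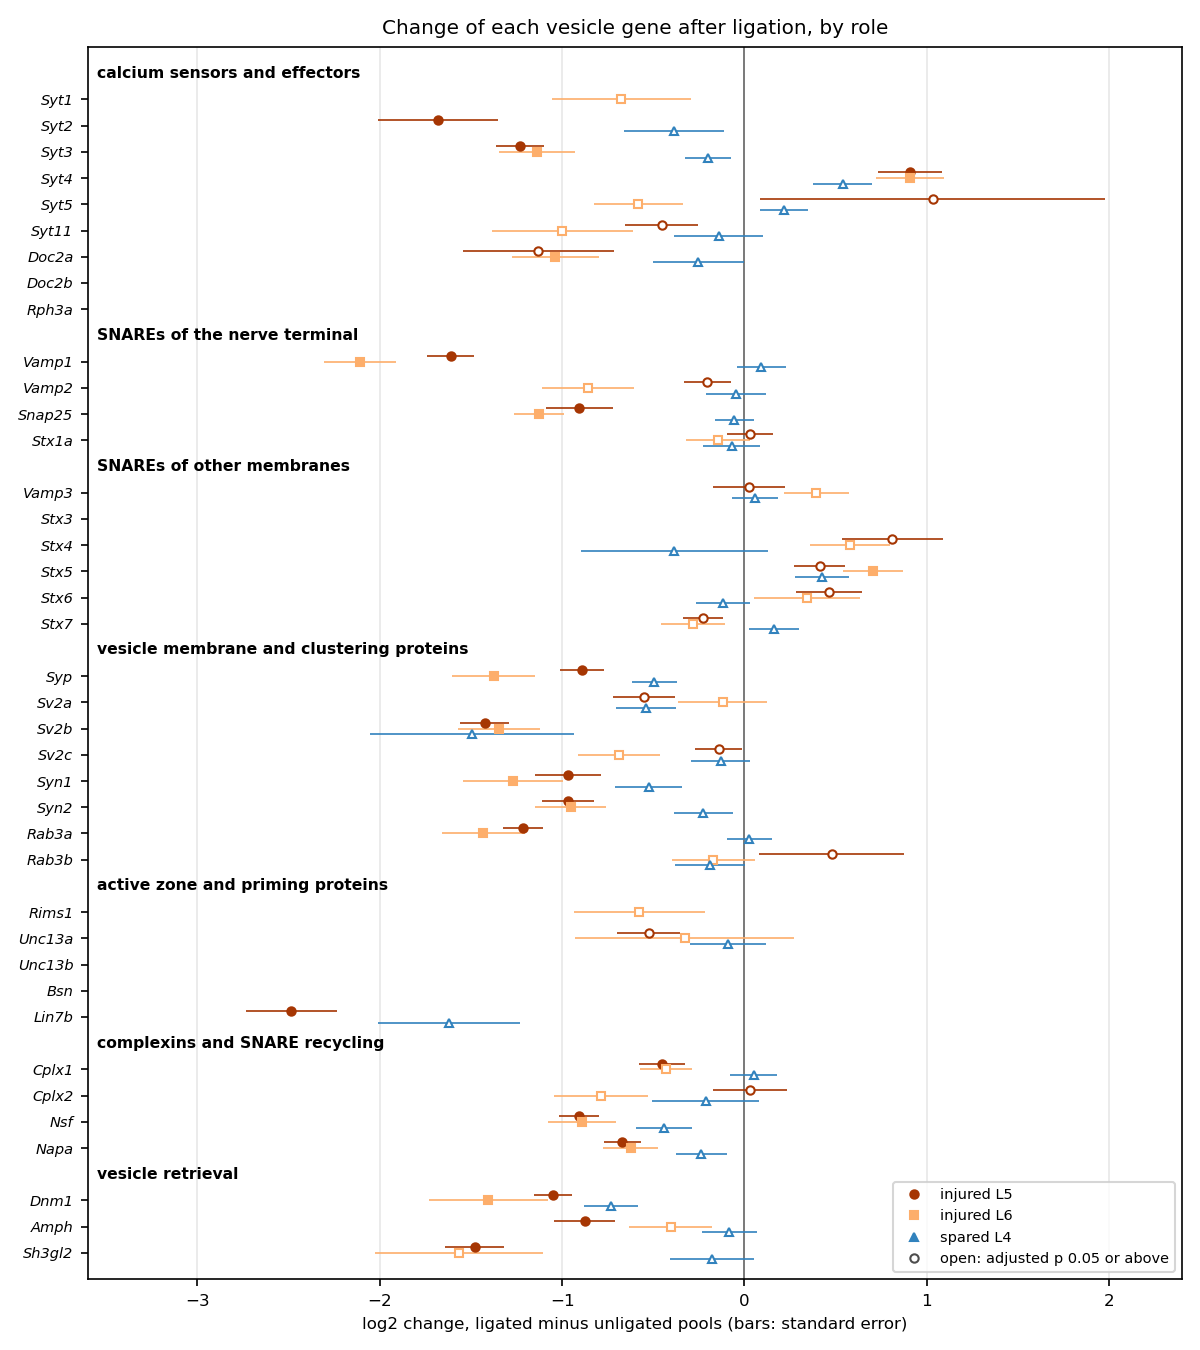
Log2 change with ligation (points, with bars of 1 standard error) in the ipsilateral L5, L6 and L4 ganglia for each member tested, grouped by role. Filled points have an adjusted p below 0.05. The filled points of L5 and L6 lie below 0 except for Syt4 (0.91 in both) and Stx5 (0.71 in L6), and L4 has none.

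The spared L4 ganglion of the same side gave no call among the 32 members tested, where 0.0468% of all genes were called lower and 0.0117% higher. The lowest adjusted p of a member was 0.0998, for Dnm1 at a log2 change of -0.73. An unadjusted p below 0.05 was reached by 9 members and by 14.2% of all genes. The median change was -0.16. Without either ligated pool 1 member was called, and under the deposited scaling 3 were. Neuron markers were 11.00 to 11.18 in the ligated and 11.20 to 11.21 in the unligated L4 pools, a smaller gap than at L5, and macrophage markers 6.49 to 6.88 against 5.92 to 6.41.

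Vamp1 in L4 read 1077, 932.6 and 914.8 in the unligated and 932.6 and 1154 in the ligated pools, and the groups overlapped (log2 change 0.09). Syt2 read 15.9, 22.6 and 20.7 against 14.7 and 12.6 (log2 change -0.39). Lin7b read 41.9, 38.2 and 56.0 against 4.32 and 20.96, with a change of -1.62 (SE 0.39, adjusted p = 0.137). For Lin7b the groups were apart in L4 as well, though the change did not pass. Sv2b had a change of -1.50 (SE 0.56, adjusted p = 0.283) that came from the ligated gabapentin pool at 81.1, while the ligated pool at 454.9 lay near the unligated 542, 612.4 and 525.2. The other Sv2b probe set had a change of 0.25 in L4 (adjusted p = 0.585), opposite in sign, whereas both fell in L5 and L6.

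The difference of the ligation change between an injured and the spared ganglion was tested directly and passed for no member. For L5 against L4, 32 members were tested, and 0% of all genes were called either way. An unadjusted p below 0.05 was reached by 11 members and by 19.9% of all genes. The differences on the log2 scale were -1.71 for Vamp1 (adjusted p = 0.0947), -1.30 for Sh3gl2 (0.100), -1.29 for Syt2 (0.0964), -1.24 for Rab3a (0.0983) and -1.03 for Syt3 (0.0986). For L6 against L4, 34 members were tested, where 0.0339% of all genes were called lower and 0% higher. There 11 members had an unadjusted p below 0.05, as did 16.5% of all genes. Among representative probe sets Vamp1 had the lowest adjusted p there, 0.0661 at a difference of -2.20, followed by Rab3a at -1.46 (0.108). The 2 Sv2b probe sets disagreed, with the representative at 0.15 (0.931) and the other at -1.965 (0.0773). For L5 against L4 they were at 0.07 (0.956) and -1.18 (0.122). Under the deposited scaling 11 members passed for L5 against L4, where that scaling moved the median of all genes to -0.80, and 0 for L6 against L4. With these pools a fall in the injured ganglia alone was therefore not established by the test of the difference.

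The contralateral ganglia gave no call among the members: 34 were tested in L4 and in L5, and 32 in L6. Of all genes 0% were called in the contralateral L4 and L5, and 0% lower and 0.0236% higher in L6. An unadjusted p below 0.05 was reached by 1, 4 and 9 members, and by 3.79%, 8.15% and 9.16% of all genes. Vamp1 read 874.8, 1005 and 850.7 without and 1070 and 1102 with ligation in the contralateral L4, 940.8 and 994.4 against 960 and 976 in L5, and 887.3 and 809.9 against 1024 and 1089 in L6. Each compartment was normalized on its own, so these levels are not set against those of the ipsilateral ganglia. The Vamp1 log2 changes were 0.26, 0.00 and 0.32. Syt2 read 35.3 and 41.1 against 29.7 and 32.5 in the contralateral L5. The lowest adjusted p of a contralateral member was 0.103, for Sh3gl2 in L6 at a change of 1.57, opposite in sign to its change on the ligated side.

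In the ipsilateral sciatic nerve, beyond the ligation, 1 of 27 members tested rose and 1 fell, where 2.04% of all genes were called higher and 2.87% lower. Rab3b, a paralog of the vesicle GTPase Rab3a, read 32.6, 24.1 and 37.8 in the unligated and 180.4 and 181.1 in the ligated pools. Its log2 change was 2.34 (SE 0.21, adjusted p = 0.00283), and the probe set stood above the 40th percentile of its array in all 5 nerve pools. The changes of its other probe sets ran from 2.36 to 2.71, but 2 of these passed the filter through the ligated pools only and had to differ. The call was lost only without the ligated pool. In the L5 and L6 ganglia of the same side, Rab3b had changes of 0.48 and -0.17 that did not pass.

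Vamp1 was dim in nerve, where its signals were 47.6, 41.0 and 53.8 in the unligated and 16.9 and 17.9 in the ligated pools. The log2 change was -1.18 (SE 0.19, adjusted p = 0.0171), but only 1 of its 5 probe sets was called, and the changes ran from -1.18 to -0.19. Without the ligated pool neither Rab3b nor Vamp1 was called, and without the naive or the ligated gabapentin pool only Rab3b was. Skeletal muscle markers averaged 5.63 to 8.85 on the log2 scale in the ligated and 9.01 to 10.16 in the unligated nerve pools, and 4 Schwann cell markers 10.14 to 10.23 against 10.95 to 11.20. Of the neuron markers, 1 was called, with Nefm at a log2 change of 3.06. The GAPDH ratio was 1.61 to 1.92 in the ligated and 1.60 to 7.38 in the unligated nerve pools. Their part in the Rab3b and Vamp1 changes was not tested. Among other members, Snap25 changed by -0.90, Syn1 by -0.88, Sv2b by -0.87 and Rph3a by 0.69, with none past the threshold. Snap25, Syn1 and Cplx2 met the filter in nerve through unligated pools only and had to differ. A further 1 member met it through ligated pools only. Of the 23 members above the filter percentile in both groups, 1 fell and 1 rose.

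Spinal cord and brain gave no call: 31 members were tested in the ipsilateral cord, 32 in the contralateral cord and 34 in brain, and 0% of all genes were called in any of them. The numbers of members with an unadjusted p below 0.05 were 0, 1 and 3, beside 2.28%, 4.53% and 2.69% of all genes. Vamp1 read 1250, 1304 and 1062 in the unligated and 1231 and 1231 in the ligated pools of the ipsilateral cord, 1103, 1148 and 1280 against 1207 and 1369 in the contralateral cord, and 463.8, 497.2 and 486.8 against 506.9 and 528.6 in brain. Syt2 read 15.6, 26.3 and 17.0 against 20.4 and 15.4 in the ipsilateral cord. In each case the ligated pools lay within or near the unligated range. Log2 changes of the members ran from -0.39 to 0.73 in the ipsilateral cord, from -0.46 to 0.43 in the contralateral cord and from -0.50 to 0.66 in brain.

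**Figure D3:**
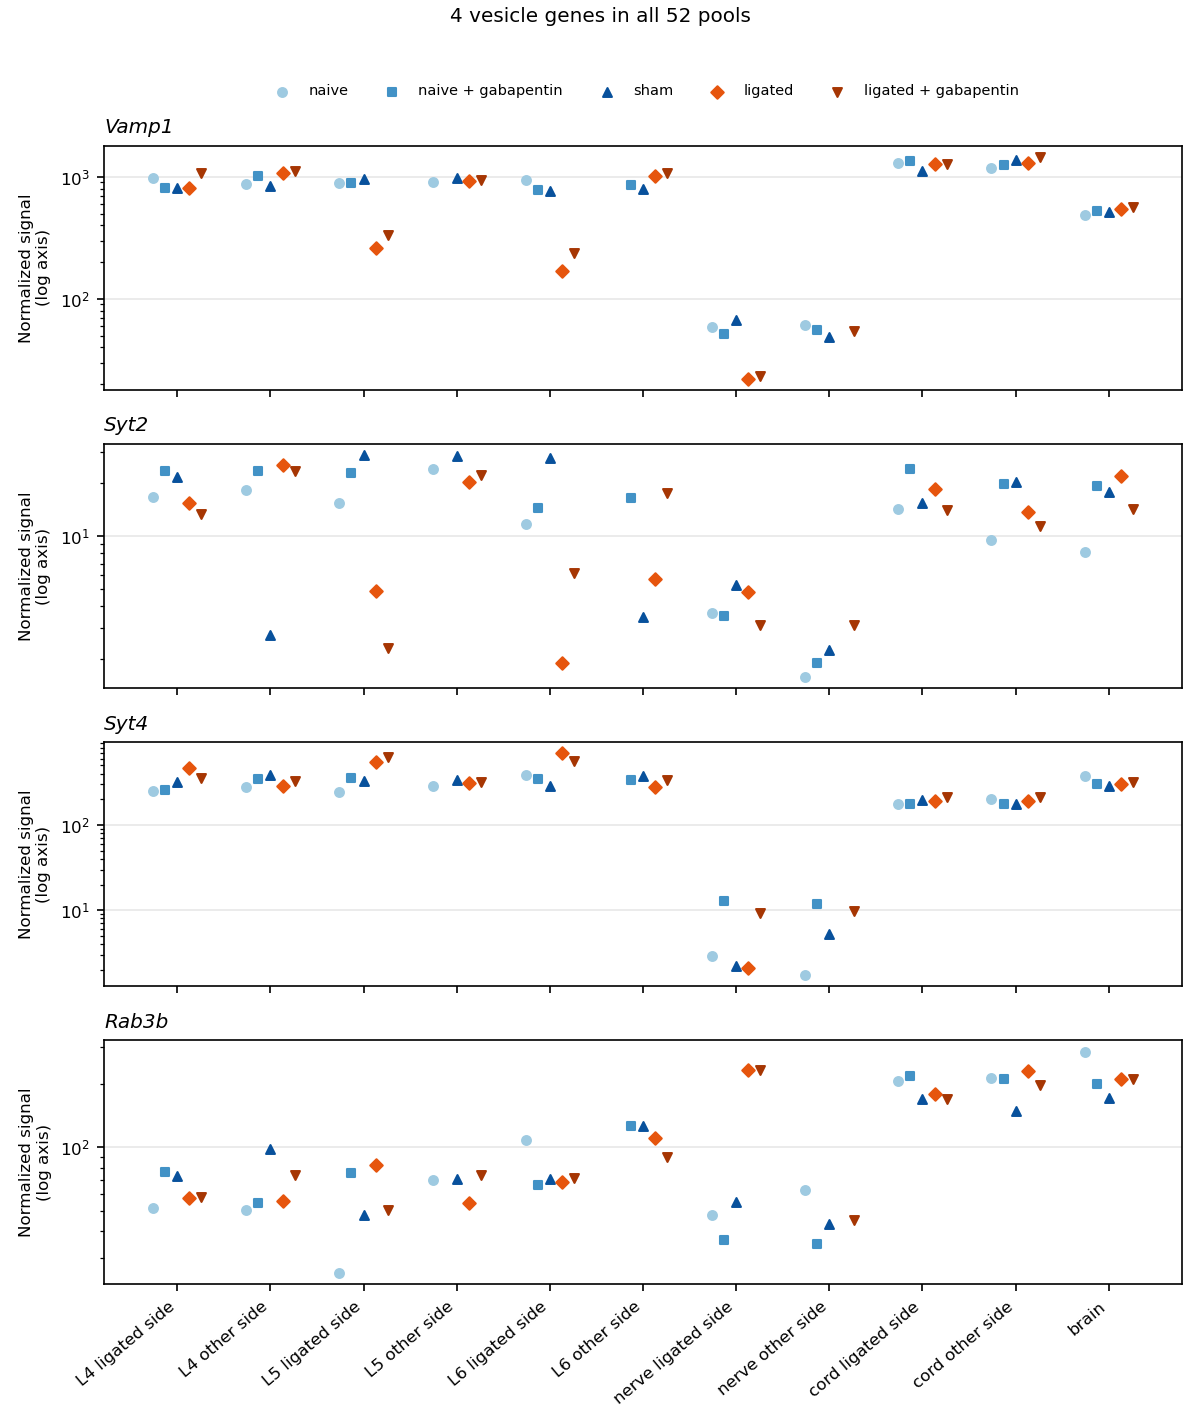
Normalized signal (log axis) of Vamp1, Syt2, Syt4 and Rab3b in all 52 pools, by compartment, with 1 point per pool and colours for the treatment. Among the ganglia Vamp1 is lowest in the ligated ipsilateral L5 and L6, Syt4 is higher there than in the unligated pools, and Rab3b stands apart in the ligated ipsilateral nerve.

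Gabapentin was compared over 2 treated and 3 untreated pools with ligation in the model, and no member was called. In the L5 ganglion 32 members were tested, with a lowest adjusted p of 0.99, 0 representatives at an unadjusted p below 0.05, and changes from -0.41 to 0.94. On the mean over the 8 compartments with all 5 pools, 36 members were tested, with a lowest adjusted p of 0.999 and changes from -0.28 to 0.24. Of all genes 0% were called in either comparison, and 3.49% and 1.97% had an unadjusted p below 0.05. Among the representative probe sets, the lowest unadjusted p values there were 0.0309 for Rab3a, 0.0405 for Syn2 and 0.048 for Unc13a. Other probe sets reached 0.00376 and 0.0262 for Vamp1, 0.0224 for Snap25 and 0.0256 for Nsf, each with an adjusted p of 0.999.

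Across unligated tissues the members had distinct distributions. Levels are given as the mean and SD over the 3 unligated treatments on a common scale, and the level of a probe set is compared only with itself. Vamp1 was highest in cord (1266 ± 32.6, n = 3), then ganglia (871.6 ± 56.6), brain (511.4 ± 20.3) and nerve (57.2 ± 3.27), and no neighbours in that order overlapped. Syt2 was 20.3 ± 5.71 in ganglia, 17.3 ± 5.07 in cord and 15.1 ± 6.02 in brain, which do not differ beyond their spread, and 3.03 ± 0.633 in nerve. Snap25 had another order, with 2631 ± 344.1 in brain, 1922 ± 206.5 in cord, 1513 ± 123.7 in ganglia and 17.8 ± 0.714 in nerve.

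Between ganglia and cord, 6 of 35 members were higher in ganglia and 7 were lower, where 16.8% of all genes were called higher and 14.4% lower. Syn2 (1.27), Sv2b (1.18), Stx7 (0.88), Syt4 (0.71) and Stx1a (0.58) had the largest log2 differences in favour of ganglia among the genes called. Sv2a (-2.0), Rab3b (-1.54), Stx4 (-1.06), Vamp3 (-0.74) and Syt3 (-0.54) had the largest in favour of cord. The call was shared by 1 of 4 Snap25, 1 of 2 Stx1a, 2 of 3 Stx4 and 2 of 3 Syn2 probe sets. The SV2 paralogs thus took opposite directions: Sv2b was 506 ± 60.5 in ganglia and 220.7 ± 40.8 in cord, and Sv2a 75.5 ± 9.12 and 318 ± 28.4 (n = 3 each). For Vamp1 the difference was -0.54, but only 1 of its 5 probe sets had that call and 3 had that sign.

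Brain had more of these transcripts than cord, with 20 of 35 members higher and 3 lower, where 10.7% of all genes were called higher and 13.0% lower. Without the naive gabapentin pools 14 members were called. The largest log2 differences were 2.25 for Stx1a (adjusted p = 1.67e-07), 2.15 for Syt1, 2.12 for Cplx2, 1.99 for Sv2b and 1.84 for Rims1. Syt1 and Rims1 passed the filter through brain pools only, so their difference was bound to appear, and of the 32 members above the 40th percentile in some pool of both tissues 18 were higher and 3 lower. The genes lower in brain were Vamp1 (-1.29, adjusted p = 3.37e-07), Vamp3 (-0.83) and Syt3 (-0.49). Of the terminal SNAREs, Stx1a, Vamp2 and Snap25 were higher in brain and Vamp1 was lower. The call was shared by 2 of 5 Snap25 and 4 of 5 Vamp1 probe sets, and by 1 of 2 for Syt3, Sv2a, Stx7 and Napa. Marker genes differed between these tissues too: 4 of 5 oligodendrocyte markers, 4 of 4 Schwann cell markers, 4 of 7 microglia markers and 5 of 9 neuron markers were lower in brain, while 3 neuron markers were higher. Their part in the member differences was not tested. Vamp2 was 1197 ± 101.6 in brain and 453.9 ± 38.9 in cord (n = 3 each), the opposite order to Vamp1.

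Uninjured nerve, which holds axons but no neuronal cell bodies, was lower than ganglia for 28 of 35 members and higher for 4, where 22.5% of all genes were called lower and 29.7% higher. The largest log2 differences were -6.12 for Snap25 (adjusted p = 4.49e-13), -4.75 for Syt4, -4.63 for Syn1, -4.20 for Rab3a and -4.12 for Syn2. Syt4, Syn2, Syt1, Syt2, Rims1 and Lin7b passed the filter through ganglia only, and of the 29 members above the 40th percentile in some pool of both tissues 22 were lower and 4 higher. Vamp1 differed by -3.79 and Syt2 by -1.54 (adjusted p = 2.13e-04), Syt2 being near the floor of the array in nerve. The 4 genes called higher in nerve were SNAREs of other membranes: Vamp3 (1.35), Stx4 (1.34), Stx5 (0.86) and Stx6 (0.72). The direction of Stx5 and Stx6 rests on their representative probe set, since the other 2 probe sets of Stx5 (-0.51 and -0.30) and the other 1 of Stx6 (-0.50) had the opposite sign. Both calls were lost under the deposited scaling (adjusted p = 0.141 and 0.667) and with the mean over probe sets (0.941 and 0.564). For Stx4, 2 of 3 probe sets gave the call, and for Stx7, which was lower, 1 of 2. Nerve also had higher skeletal muscle markers (8 of 9, median log2 difference 4.37), macrophage markers (7 of 7, 1.56) and Schwann cell markers (4 of 4, 1.18), and lower neuron markers (9 of 9, -5.73). The ratio of 3′ to 5′ GAPDH signal was 1.60 to 7.38 in the unligated nerve pools and 1.13 to 1.49 in the unligated ipsilateral ganglion pools. The part of the markers and of this ratio in the member differences was not tested. This comparison shares unligated ganglion pools with the ligation comparisons. There Vamp1, Syn1 and Rab3a had log2 changes of -1.61, -0.97 and -1.22 in L5, and Vamp3, Stx4, Stx5 and Stx6 had changes of 0.02, 0.81, 0.41 and 0.46 that did not pass.

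**Figure D4:**
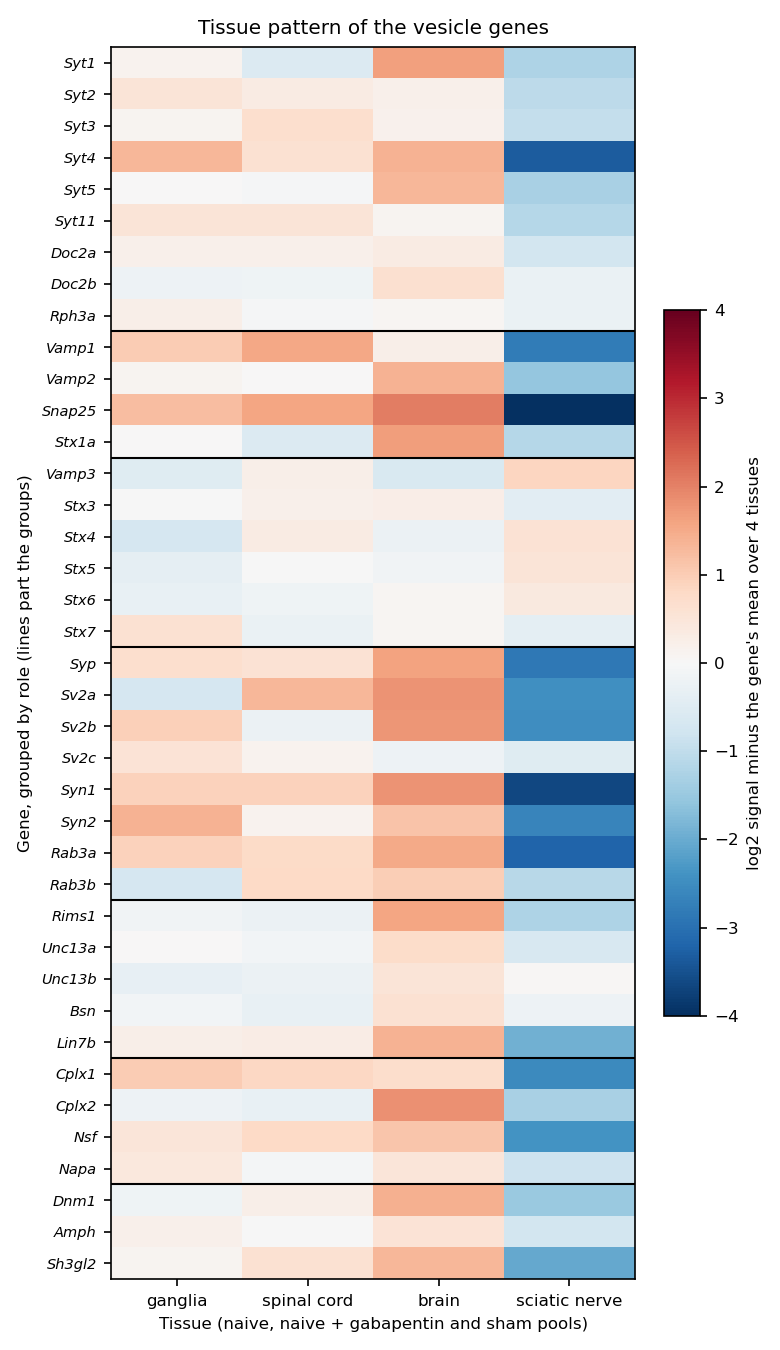
Log2 signal of each of the 39 genes in ganglia, cord, brain and nerve (mean over the 3 unligated treatments), minus the mean of that gene over the 4 tissues, with colour from low to high and genes grouped by role. Most rows are lowest in nerve, as Snap25 at 17.8 in nerve against 2631 in brain shows, and Vamp3, Stx4, Stx5 and Stx6 are highest there, though the other probe sets of Stx5 and Stx6 had the opposite sign against ganglia.

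Related genes outside the 41 symbols were counted from lists of the same pathway. Of 9 further synaptotagmins and C2 domain effectors tested in L5, 4 fell and 0 rose (median log2 change -0.45), beside 9.44% of all genes lower and 6.80% higher in that ganglion, with Cadps2 at -1.70, Cadps at -1.31 and Syt9 at -0.79. Cadps and Cadps2 encode the CAPS proteins, which prime dense-core vesicles. Of 33 further SNAREs, SNARE-binding and tethering proteins, 5 fell and 1 rose (median -0.21), with Rab3c at -2.05, Stxbp6 at 0.82 and Ppfia3 at -0.78. Rab3c, the paralog of Rab3a, thus fell with it in L5.

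Of 23 further vesicle membrane, transmitter loading and proton pump genes tested in L5, 3 fell and 4 rose (median -0.08). The share of falls was near the 9.44% of all genes. The share of rises was above the 6.80% of all genes called higher, and that difference was not tested. Svop, a transporter-like vesicle protein, changed by -1.82, Slc18a2, the vesicular monoamine transporter, by 1.19 and Atp6v1b2, a proton pump subunit, by -0.96. Of 21 further endocytosis and coat genes, 4 fell and 0 rose (median -0.26), with Dnm3 at -1.36 and Ap2b1 at -0.55. In L6 the falls and rises were 4 and 0 of 9, 1 and 0 of 33, 2 and 1 of 23, and 2 and 0 of 21 in the same order of lists, against 4.61% and 4.76% of all genes. In the ipsilateral nerve 3 of 19 endocytosis genes rose and 1 fell, where 2.04% and 2.87% of all genes did, and Dnm3, which fell in L5, was at 2.47 there. Secretory granule markers fell with the members: of 4 endocrine markers tested, Chgb, Scg2 and Scg3 fell in L5, at -1.29, -1.13 and -1.04, and in L6.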

How the data were processed

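Signals were deposited as linear probe set intensity, computed with MAS5 per the submitters' processing notes; the sources used here give no MAS5 version, target intensity or detection calls. Array medians ranged from 13 to 62.2 (A), 8.1 to 47.2 (B) and 14.5 to 53.3 (C). Arrays of a set were quantile normalized within a compartment, or over all 52 pools for comparisons of tissues. Values were log2 of signal plus a pseudocount (5.8, 4.5 and 6.2 for A, B and C, the 20th percentile of the deposited values). Log2 changes understate those of dim genes. Probe sets above the 40th percentile of their array in at least 2 pools of a comparison were tested with limma 3.58.1 (lmFit, eBayes with trend) in R 4.3.3, two-sided, with Benjamini-Hochberg adjustment over all kept probe sets and a threshold of 0.05; the steps were tested on simulated data. Alternatives changed the scaling, pseudocount, filter, probe set rule, covariates and pools. The number of pools limits the precision.

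Members and lists were chosen with earlier results of these data known. Vamp1, Syt2 and members past the threshold in L5 or L6 are named, with pool values for the largest changes in L5, and the 5 largest tissue differences each way. Symbols came from the platform annotation, updated through RefSeq.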

Additional observations from a re-analysis of the deposited data

Results flagged for a closer look

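Syt5, a calcium sensor related to Syt1, had ligation changes of opposite sign in the injured L6 and the spared L4 ganglion of the same side. In L6 both ligated pools (53.1 and 90.4) lay below the unligated 92.6, 108 and 122.1, a log2 change of -0.58 (adjusted p = 0.192). In L4 both ligated pools (118 and 111.9) lay above the unligated 100.4, 94.8 and 99.0, a log2 change of 0.22. The difference between the ganglia was -0.80 (SE 0.30, adjusted p = 0.261, limma) and did not pass the test.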

How the results depend on the processing

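Ligated and unligated pools of a compartment were compared unpaired, with 1 pool per treatment. Ipsilateral and contralateral ganglia of the same treatment were not compared with each other. Differences between injured and spared ganglia were taken within a treatment, and tissue fits with treatment as a block called 15, 23 and 33 members for ganglia against cord, brain against cord and nerve against ganglia, beside 13, 23 and 32. Of 60 named calls, 27 were kept in every alternative and with every treatment left out. Of 723 recomputed values 605 kept the call, 118 lost it in the same direction and 0 reversed. In L5 the 9 calls kept wherever they were recomputed were Dnm1, Nsf, Rab3a, Sh3gl2, Sv2b, Syp, Syt3 and Vamp1, in 9 alternatives, and Lin7b, in 8, which was tested through unligated pools only, and in L6 0 were, as none held under the deposited scaling.

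The counts of called members that moved by over 1.5 times were as follows; the cause was not tested. In L6 (14), the count was 0 under the deposited scaling and 9 with median scaling, without a filter or with muscle markers as a covariate. In L4 (0) it was 3 under the deposited scaling, and in the contralateral L6 (0) it was 4. In the nerve (2) it was 1 under the deposited scaling and with the mean over probe sets, and 4 with 1 spread over all compartments. The L5 against L4 difference (0) gave 11 under the deposited scaling, 1 with a pseudocount of 16 and 4 with a filter at the 60th percentile, and L6 against L4 (0) gave 1 with either of the last settings. Leaving out each treatment gave 9 to 18 calls in L5, 2 to 10 in L6, 0 to 1 in L4, 0 to 2 in nerve and 14 to 19 for brain against cord. The deposited scaling moved the median change of all genes to -0.27 in L5, -0.26 in L6, 0.45 in L4, -0.55 in the contralateral L6 and 0.30 in nerve. Dim probe sets limit Syt2, Lin7b, Syt1 and the active zone genes most, since no detection calls were used.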
